A study of Mus musculus with 6 samples.

Results

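The 10 genes described here encode the oxygen sensor of mouse pancreatic stellate cells (PSCs): the HIF alpha subunits Hif1a, Epas1 and Hif3a, the beta subunits Arnt and Arnt2, the prolyl hydroxylases Egln1, Egln2 and Egln3, the asparaginyl hydroxylase Hif1an, and Vhl. They were chosen by name, as the gene products that build, hydroxylate or degrade HIF, and with earlier results of these data known. Through their Ensembl identifiers they were matched to 10 of the 55426 features measured. RNA was sequenced from primary PSCs of C57BL/6 mice grown in coculture with mT3 PDAC organoids for 48 h. The 3 normoxic samples (PSCs cocultured with mT3 PDAC, 21% O2) and the 3 hypoxic samples (PSCs cocultured with mT3 PDAC, 1% O2) carried no other treatment, so all 6 shared the tumor organoids. PSCs are fibroblast precursors of the pancreas, and mT3 is a mouse PDAC line. PSCs sat in Matrigel in a transwell insert above the organoids, so soluble factors but not cells were meant to pass between the compartments. They came from wild-type animals of either sex by density gradient and were used after early passages, and no sample of PSCs without tumor organoids belongs to the comparison. The labels do not say whether replicates were separate PSC lines or separate wells of 1 line, so the p-values below measure the spread between these samples.

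HIF is a pair of proteins, an oxygen-labile alpha subunit and a stable beta subunit, that binds DNA and activates genes for glycolysis, angiogenesis and erythropoiesis. With oxygen present, the prolyl hydroxylases (PHD1, PHD2 and PHD3, encoded by Egln2, Egln1 and Egln3) mark the alpha subunit, and the VHL ubiquitin ligase binds the mark and sends the protein for degradation. The asparaginyl hydroxylase FIH, encoded by Hif1an, adds a separate mark that keeps coactivators away. The control is on protein stability, which RNA does not measure, while Egln1 and Egln3 are known HIF target genes and so form a feedback loop that RNA can show.

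HIF binds the core letters ACGTG or GCGTG, so the sequence in front of the 3 prolyl hydroxylase genes is shown, of which Egln3 and Egln1 rose and Egln2 was not called, together with that of Vhl, which rose. Each run covers 250 bases before to 50 bases after the RefSeq start on GRCm38.p6, is written 5′ to 3′ on the strand of the gene, and has each ACGTG or GCGTG on either strand in capitals. The positions are chr12:54203825-54204124 (minus strand) for Egln3, chr8:124949205-124949504 (minus strand) for Egln1, chr7:27166753-27167052 (minus strand) for Egln2 and chr6:113623744-113624043 (plus strand) for Vhl.
Egln3: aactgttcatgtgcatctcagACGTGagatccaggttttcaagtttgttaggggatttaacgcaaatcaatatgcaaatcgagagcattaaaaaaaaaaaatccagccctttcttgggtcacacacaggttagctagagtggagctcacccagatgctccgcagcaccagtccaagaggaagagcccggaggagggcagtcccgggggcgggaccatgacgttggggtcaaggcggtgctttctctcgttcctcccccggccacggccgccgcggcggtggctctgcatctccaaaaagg
Egln1: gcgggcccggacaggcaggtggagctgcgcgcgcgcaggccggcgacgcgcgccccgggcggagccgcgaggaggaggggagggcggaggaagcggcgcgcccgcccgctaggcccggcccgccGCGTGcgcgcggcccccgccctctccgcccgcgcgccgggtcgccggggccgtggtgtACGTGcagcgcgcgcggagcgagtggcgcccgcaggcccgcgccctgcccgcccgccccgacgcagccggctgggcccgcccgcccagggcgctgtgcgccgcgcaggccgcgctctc
Egln2: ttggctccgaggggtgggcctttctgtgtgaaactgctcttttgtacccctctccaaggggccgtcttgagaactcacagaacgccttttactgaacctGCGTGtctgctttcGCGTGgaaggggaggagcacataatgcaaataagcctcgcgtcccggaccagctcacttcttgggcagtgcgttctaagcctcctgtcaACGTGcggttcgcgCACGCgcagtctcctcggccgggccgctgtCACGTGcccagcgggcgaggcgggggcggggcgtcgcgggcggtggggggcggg
Vhl: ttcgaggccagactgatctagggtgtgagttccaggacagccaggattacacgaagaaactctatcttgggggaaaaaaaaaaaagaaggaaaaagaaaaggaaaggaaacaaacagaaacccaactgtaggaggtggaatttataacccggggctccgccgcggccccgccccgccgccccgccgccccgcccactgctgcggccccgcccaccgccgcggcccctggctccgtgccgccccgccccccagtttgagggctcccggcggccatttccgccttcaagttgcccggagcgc

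The Egln3 window held 1 ACGTG, at positions -229 to -225 from the start, and the Egln1 window held 1 ACGTG at -68 to -64 and 1 GCGTG at -126 to -122. RefSeq gives a pair of starts for Egln2, and the window shown, the one at the annotated gene start, held 3 matches of each core, where the run CACGTG reads as ACGTG on both strands and gives 2 of them. The window of the other Egln2 start, chr7:27165679-27165978, held 1 GCGTG and no ACGTG. The Vhl window held neither. Over all 32851 RefSeq windows of 300 bases, 19.6% held ACGTG, 32.4% held GCGTG and 43.8% held either, so these letters are common. Among the other genes, Hif1a held 3 ACGTG, of which 2 lie in 1 CACGTG, Hif3a held 2 GCGTG, Arnt held 1 GCGTG, and Arnt2 and Hif1an held none. The Hif1a window, chr12:73907617-73907916, lies inside the gene as annotated, which starts at 73901375. A window was found for 9 of the 10 genes, all but Epas1. The base composition also differed, with 86.0% G and C in the Egln1 window, 64.3% in that of Egln2, 62.7% in that of Vhl and 54.7% in that of Egln3.

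All 10 genes had enough counts to be tested, among 16207 genes tested. A gene was called changed at a fold change over 1.5 and an adjusted p under 0.05 in edgeR's quasi-likelihood test with Benjamini-Hochberg adjustment, and every adjusted p below comes from that test. Hif3a, Egln1, Egln3 and Vhl were called higher in hypoxia, which is 4 of 10 beside 18.9% of all tested genes. Epas1 was called lower, which is 1 of 10 beside 15.3% of all tested genes. At an adjusted p under 0.05 without the fold requirement, 6 of the 10 were higher, beside 31.8% of all tested genes, and 1 was lower, beside 31% of them. The 3 hypoxic and 3 normoxic samples did not overlap for 8 of the 10 genes, beside 68.9% of all tested genes, so this count is near the background. Hif3a passed the low count filter only through its hypoxic samples, where it is high, and of the other 9 genes 3 were called higher and 1 lower. The median log2 fold change was 0.48 over the 10 genes, 0.42 over those 9 and -0.004 over all tested genes.

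Library totals ran from 24749601 to 25914892 counts in normoxia and from 25847719 to 31925054 in hypoxia, and 3 counts, taken as the smallest amount told from none, correspond to 0.094 to 0.121 CPM, the unit in which counts are scaled to a common library total. Replicates of a group differed by more than sampling noise, so each sample was counted once. These limits cover counting error only, because no source mentions molecular identifiers and several reads can stem from 1 molecule. All 12 fibroblast and stellate cell markers were detected in each sample, with summed levels of 28608 to 35912 CPM in normoxia and 30600 to 35465 CPM in hypoxia. Most of this sum was Col1a1, Col1a2 and Col3a1, and of the 12 markers 2 were called higher and 3 lower, from Pdpn (log2 fold change 0.99) to Lum (-2.17). The shares of all tested genes, 18.9% called higher and 15.3% called lower, are the background for this and the other marker lists. Of the tumor epithelial markers, Epcam, Cdh1, Krt8, Krt18, Cldn4, Cldn7 and Esrp1 had at most 6 counts in any sample. The summed level of the 10 tumor epithelial markers was 3.23 to 5.40 CPM in normoxia and 25 to 29 CPM in hypoxia, and most of the difference was Krt19, at 0.715 ± 0.297 and 22.1 ± 1.66 CPM (SD, n = 3). Pericyte markers summed to 71.8 to 76.9 CPM in normoxia and 124 to 143 CPM in hypoxia, with 3 of 5 tested called higher, from Rgs5 (log2 fold change 0.84) to Notch3 (1.24). The part of these cells in the results below was not tested.

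**Figure D1:**
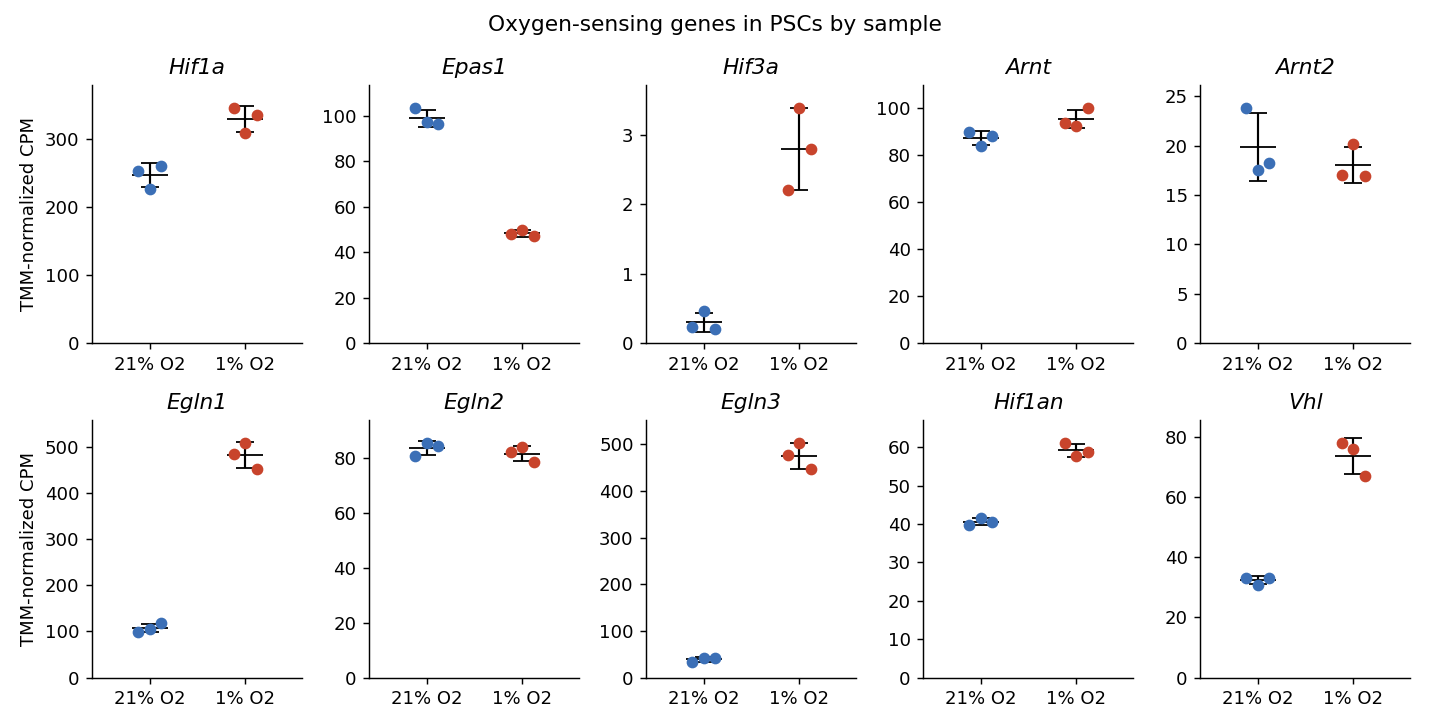
TMM-normalized CPM of each gene (vertical axes, linear and starting at 0, a separate scale per gene) in the 3 samples at 21% O2 (blue) and the 3 at 1% O2 (red), with the mean (horizontal bar) and SD (error bar). Egln1 and Egln3 reached nearly the same CPM in hypoxia from different levels in normoxia, Epas1 is the gene whose hypoxic samples all lie far below the normoxic ones, and the groups overlap for Arnt2 and Egln2.

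The alpha subunits moved in different directions. Hif1a RNA was modestly higher in hypoxia, Epas1 fell by 1.04 on the log2 scale, to about 0.487 of its normoxic level, and Hif3a rose from traces to a low level.

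Hif1a (ENSMUSG00000021109, chr12:73901375-73947530, plus strand, GRCm38) encodes HIF1ɑ, the subunit present in most cells. It was measured at 253, 226 and 260 CPM in normoxic replicates 1, 2 and 3 and at 345, 308 and 335 CPM in the hypoxic ones. All hypoxic samples lay above all normoxic samples, and replicate 2 was the lowest of both groups. Its log2 fold change was 0.42 (SE 0.07, 95% interval 0.26 to 0.58, adjusted p = 0.00077), a fold of 1.34, which is under the 1.5 needed for a call. Its exons share 330 of 5896 bases with an antisense gene, Gm15283, and 148 with Gm49321, which had 4 to 29 and 0 to 5 counts per sample against 5964 to 10649 for Hif1a.

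Epas1 (ENSMUSG00000024140, chr17:86753700-86833410, plus strand) encodes HIF2ɑ, the subunit known from endothelial cells and for control of erythropoietin. It was measured at 103, 97.1 and 96.5 CPM in normoxia and at 47.8, 49.7 and 47.1 CPM in hypoxia. The groups were far apart and each was narrow, with SDs of 3.76 and 1.36 CPM. The log2 fold change was -1.04 (SE 0.05, 95% interval -1.16 to -0.92, adjusted p = 6.4e-07), which places Epas1 at rank 1172 from the lowest of 16207. In bulk RNA, fewer cells of a type and less RNA per cell cannot be told apart. Endothelial markers, which accompany Epas1 in tissue, summed to 21.7 to 28.8 CPM in normoxia and 32.9 to 45.2 CPM in hypoxia, with 4 of 9 tested called higher (among them Esam, which passed the low count filter only through hypoxia) and 2 lower, from Tek (log2 fold change 1.16) to Cldn5 (-0.81). Macrophage markers summed to 907 to 1598 CPM in normoxia and 464 to 839 CPM in hypoxia, with 6 of 10 called lower, from Cd68 (log2 fold change -1.01) to Tyrobp (-1.35), and none higher. Most of the macrophage sum was Lyz2, at 900 ± 256 CPM in normoxia and 413 ± 120 CPM in hypoxia (SD, n = 3). Adipocyte markers summed to 5252 to 6982 CPM in normoxia and 3215 to 3526 CPM in hypoxia, with all 7 tested called lower. Among these Lpl had the smallest change (-0.62) and Cidec, which passed the low count filter only through normoxia, the largest, from 106, 303 and 91 counts to 1, 3 and 4. Most of the adipocyte sum was Lpl, at 4961 ± 368 CPM in normoxia and 3231 ± 158 CPM in hypoxia (SD, n = 3). The sum thus mainly follows the gene of this list that changed least. The part of these cells in the Epas1 result was not tested. Normoxic replicate 2 had the highest sums of the macrophage and adipocyte lists.

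Hif3a (ENSMUSG00000004328, chr7:17031507-17062427, minus strand) encodes an alpha subunit with splice forms that can restrain HIF. It had 6, 12 and 5 counts in normoxia and 56, 106 and 89 counts in hypoxia, or 0.231, 0.455 and 0.203 CPM against 2.20, 3.38 and 2.80 CPM. The lowest hypoxic sample had more counts than the highest normoxic one, and both groups were low. Its log2 fold change was 3.21 with a wide interval (SE 0.33, 95% interval 2.46 to 3.96, adjusted p = 3.7e-05). Counts per gene do not separate its splice forms.

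Levels of different genes were compared in TPM, which divide each count by the length of the gene's exons before all libraries are scaled to the same sum. The 3 alpha subunits together had 199 ± 12.2 TPM in normoxia and 228 ± 10.4 TPM in hypoxia (SD, n = 3 for these and the values below). Hif1a made up 70.2 ± 1.56% of this sum in normoxia and 86.0 ± 1.12% in hypoxia. The share of Epas1 was 29.8 ± 1.53% in normoxia and 13.3 ± 0.965% in hypoxia, so alpha subunit RNA was dominated by Hif1a under both oxygen levels and more so at 1% O2. Hif3a stayed under 1% of the sum in every sample, with means of 0.0756% and 0.647%. The log2 ratio of Epas1 to Hif1a in CPM was -1.29, -1.22 and -1.43 in normoxia and -2.85, -2.63 and -2.83 in hypoxia. This is a change of -1.46, with no overlap between the groups. An exact two-sided permutation test gave p = 0.1, which is the smallest p that this test allows with 3 against 3 samples.

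**Figure D2:**
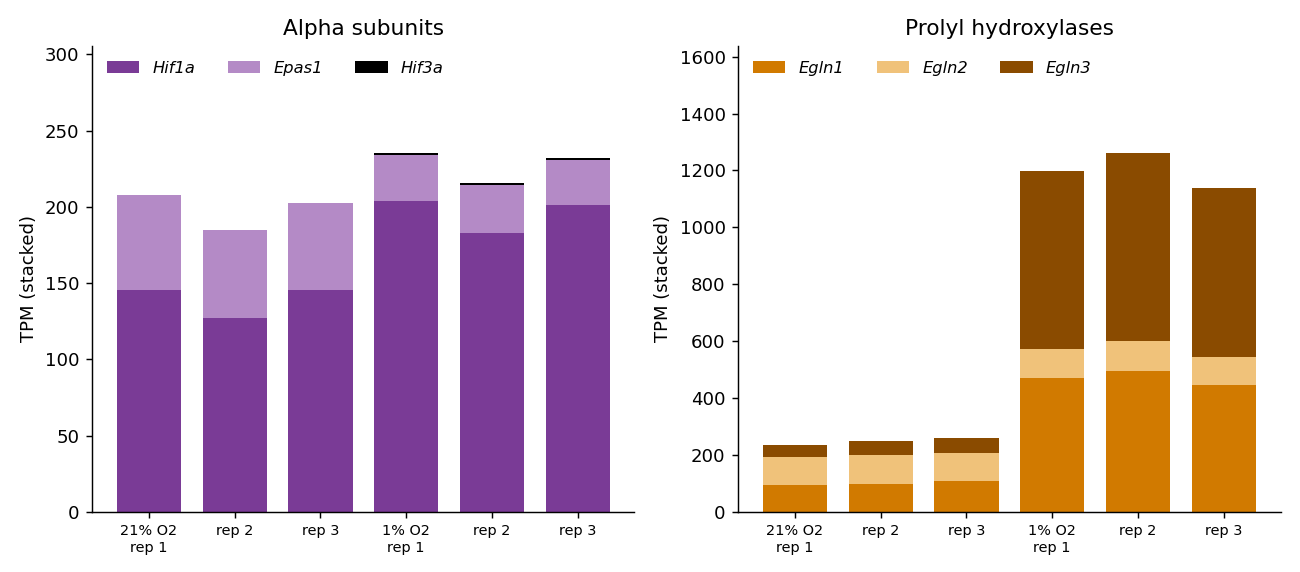
Stacked TPM of the alpha subunits (left) and of the prolyl hydroxylases (right) in each of the 6 samples, with linear axes that start at 0. The alpha sum went from 199 to 228 TPM on average with a smaller Epas1 part, while the hydroxylase sum went from 248 to 1198 TPM and Egln2 kept about the same height.

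The beta subunits showed no call. Arnt (ENSMUSG00000015522, chr3:95434388-95497240, plus strand) encodes HIF1β, the general partner of the alpha subunits and of the aryl hydrocarbon receptor. Its level was 89.7, 83.8 and 88.0 CPM in normoxia and 93.7, 92.3 and 99.7 CPM in hypoxia. The groups did not overlap, but the lowest hypoxic sample lay close to the highest normoxic one. The log2 fold change of 0.13 (SE 0.05, 95% interval 0.00 to 0.25) had an adjusted p of 0.069. Over the alternative analyses this adjusted p ran from 0.041 to 0.42.

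Arnt2 (ENSMUSG00000015709, chr7:84246278-84410176, minus strand), a paralog best known from neurons, was measured at 23.8, 17.5 and 18.2 CPM in normoxia and at 17.1, 20.2 and 16.9 CPM in hypoxia. The groups overlapped, and normoxic replicate 1 was the highest of all 6 samples. The log2 fold change was -0.13 (SE 0.13, 95% interval -0.42 to 0.15, adjusted p = 0.38), and it was 0.01 without normoxic replicate 1. Together Arnt and Arnt2 had 42.2 to 48.5 TPM in the normoxic samples and 48.6 to 51.9 TPM in the hypoxic ones, of which Arnt gave 80.9% and 83.5%. The ratio of summed alpha to summed beta TPM was 4.42 ± 0.154 in normoxia and 4.56 ± 0.251 in hypoxia, a difference smaller than the spread in hypoxia. The size of this ratio depends on the length used. With the longest annotated transcript as the length it was 3.01 ± 0.0968 in normoxia and 3.17 ± 0.171 in hypoxia. The 95% interval of the fold was 1.00 to 1.19 for Arnt and 0.747 to 1.11 for Arnt2, which leaves room for changes of that size.

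Among the prolyl hydroxylases, Egln3 and Egln1 rose strongly and Egln2 was not called. Egln3 (ENSMUSG00000035105, chr12:54178981-54203860, minus strand) encodes PHD3, the form with the lowest RNA of the 3 enzymes in normoxia. It was measured at 33.1, 41.4 and 42.4 CPM in normoxia and at 477, 502 and 446 CPM in hypoxia. Every hypoxic sample was over 10 times the highest normoxic sample. For Egln3 the log2 fold change was 3.61 (SE 0.10, 95% interval 3.38 to 3.84, adjusted p = 3.2e-08), a fold of 12.2, and its rank was 128 from the highest of 16207.

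Egln1 (ENSMUSG00000031987, chr8:124908587-124949324, minus strand) encodes PHD2, the enzyme that sets HIF1ɑ levels in most normoxic cells. It was measured at 99.2, 105 and 117 CPM in normoxia and at 484, 507 and 451 CPM in hypoxia. The groups were far apart, with the same order of the hypoxic samples as for Egln3, replicate 2 highest and replicate 3 lowest. For Egln1 the log2 fold change was 2.16 (SE 0.08, 95% interval 1.99 to 2.34, adjusted p = 8.4e-08), a fold of 4.48. The intervals of Egln1 and Egln3 do not meet, so the rise of Egln3 was the larger.

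Egln2 (ENSMUSG00000058709, chr7:27158658-27166802, minus strand) encodes PHD1, a mostly nuclear form of the enzyme. Egln2 stood at 80.6, 85.4 and 84.4 CPM in normoxia and at 82.1, 83.9 and 78.6 CPM in hypoxia. The groups overlapped within a range of a few CPM. The log2 fold change was -0.03 (SE 0.05, adjusted p = 0.60), and the 95% interval from -0.15 to 0.08 leaves room for a fold between 0.900 and 1.06. Its exons share 11 bases with Cyp2t4 on the other strand, which had at most 2 counts in any sample.

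The makeup of prolyl hydroxylase RNA was therefore different at the 2 oxygen levels. The summed level of the 3 genes was 248 ± 13.5 TPM in normoxia and 1198 ± 61.3 TPM in hypoxia. In normoxia Egln1 and Egln2 each gave 40.2% of it and Egln3 gave 19.7 ± 1.37%. In hypoxia Egln3 gave 52.3 ± 0.143%, Egln1 gave 39.2 ± 0.102% and Egln2 gave 8.54 ± 0.207%. The shares of Egln2 and Egln3 did not overlap between the groups, with either length. With the longest annotated transcript as the length, the normoxic shares were 35.5% for Egln1, 47.2% for Egln2 and 17.4% for Egln3, and the hypoxic ones were 38.1%, 11% and 50.8%, so the direction of the small difference in the Egln1 share depends on the length used. The log2 ratio of Egln3 to Egln1 in CPM was -1.58, -1.35 and -1.47 in normoxia and -0.02, -0.01 and -0.02 in hypoxia. This is a change of 1.45, again at the smallest p of 0.1 in the exact two-sided permutation test, and these 2 ratios were the only ones tested. Per length, Egln3 exceeded Egln1 1.33-fold in hypoxia, whereas in normoxia it had 0.490 of the Egln1 level. Set against the summed alpha subunits, the summed hydroxylases were 1.25 ± 0.118 to 1 in normoxia and 5.27 ± 0.496 to 1 in hypoxia, all in TPM.

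Hif1an (ENSMUSG00000036450, chr19:44562850-44576274, plus strand), which encodes FIH, was measured at 39.7, 41.5 and 40.4 CPM in normoxia and at 61.0, 57.8 and 58.6 CPM in hypoxia. The groups did not overlap and each spanned only a few CPM. This corresponds to a log2 fold change of 0.54 (SE 0.05, 95% interval 0.43 to 0.66, adjusted p = 2.5e-05), a fold of 1.46 with an interval from 1.34 to 1.58. Hif1an was not called because this fold is under 1.5.

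Vhl (ENSMUSG00000033933, chr6:113623959-113631633, plus strand) encodes the part of the ubiquitin ligase that recognizes hydroxylated HIF alpha. The normoxic samples had 33.3, 30.9 and 33.3 CPM and the hypoxic ones had 78.0, 76.0 and 66.9 CPM. The groups were far apart, with hypoxic replicate 3 the lowest of its group. Vhl had a log2 fold change of 1.18 (SE 0.07, 95% interval 1.02 to 1.34, adjusted p = 1.5e-06), a fold of 2.27. Of the 5 genes whose products mark the alpha subunits or send them for degradation, Egln1, Egln3 and Vhl were thus called higher, Hif1an was higher by less than the fold required, and Egln2 was not called.

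**Figure D3:**
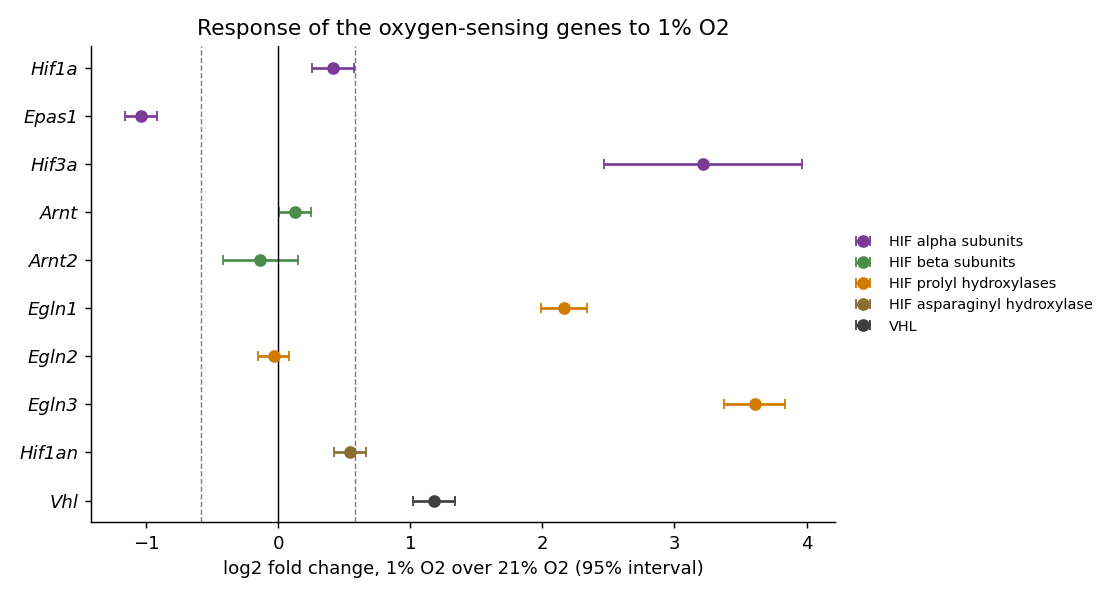
Log2 fold change of each gene, 1% O2 over 21% O2 (horizontal axis), with its 95% interval, coloured by role. The dashed lines stand at a fold of 1.5 in either direction, and Egln3, Hif3a, Egln1 and Vhl lie beyond the right line, Epas1 beyond the left one, and Hif1an and Hif1a short of the right one.

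The order of the 10 genes by level changed with oxygen. In normoxia the TPM order was Hif1a (139 ± 10.6), Egln1 (99.5), Egln2 (99.3), Epas1 (59.1), Egln3 (48.8), Arnt (36.3), Vhl (36.2), Hif1an (20.5), Arnt2 (8.62) and Hif3a (0.147). The samples of neighbouring genes in this order overlapped for Egln1 and Egln2 and for Arnt and Vhl. In hypoxia the TPM order was Egln3 (626 ± 33.6), Egln1 (470), Hif1a (196), Egln2 (102), Vhl (86.2), Arnt (41.8), Hif1an (31.4), Epas1 (30.3), Arnt2 (8.25) and Hif3a (1.46), where only Hif1an and Epas1 overlapped. Epas1 went from the fourth place to the eighth and Egln3 from the fifth to the first. With the longest annotated transcript as the length, all 10 genes kept their hypoxic place but 5 of 10 kept their normoxic one, with Arnt then above Epas1 and Egln2 above Egln1.

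The genes whose pattern over the 6 samples was most like that of Hif1a, Epas1 and Egln3 were found among 10225 genes by the root mean square difference of centred log2 CPM. For Hif1a they were Itpr3 (0.0257), Itga5 (0.0303) and Phf3 (0.0305), which shared its low value in replicate 2 of each group. They were picked for likeness in these same samples, so the shared low value is no separate result. Itga5, the integrin subunit that binds fibronectin, was measured at 313, 265 and 309 CPM in normoxia and at 414, 357 and 392 CPM in hypoxia. For Epas1 they were Cotl1 (0.0373), Add3 (0.0434) and Ptpn14 (0.0450), which stood at 138, 150 and 61.3 CPM in normoxic replicate 1 and at 65.1, 70.8 and 27.8 CPM in hypoxic replicate 1. For Egln3 they were Tnfrsf9 (0.124), Dpf1 (0.138) and H2-T-ps (0.139), and these differences were larger than those of the closest genes to Hif1a and Epas1. Of these, H2-T-ps belongs to a family of near-identical class I genes, and its counts are uncertain.

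Genes that act beside these 10 were taken from lists that were chosen with earlier results of these data known. The partners of VHL in the ubiquitin ligase, Elob, Eloc, Cul2, Rbx1 and Nedd8, had no call in 5 tested and a median log2 fold change of -0.23, whereas Vhl itself rose. At an adjusted p under 0.05 without the fold requirement, 4 of these 5 were lower, beside 31% of all tested genes, with log2 fold changes of -0.45 for Nedd8, -0.36 for Eloc, -0.23 for Cul2 and -0.19 for Rbx1. Of 19 other regulators of HIF alpha stability, 1 was called higher and 1 lower, both under the shares of all tested genes (18.9% and 15.3%), with a median of 0.03. The higher one was Wsb1, an adaptor of another ubiquitin ligase that is known to act on VHL, at 83.7, 115 and 102 CPM in normoxia and 342, 338 and 379 CPM in hypoxia (log2 fold change 1.81, SE 0.11). The lower one was Ube2s, a ubiquitin-conjugating enzyme, with a log2 fold change of -0.60 (SE 0.05).

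Of the 11 coactivators and CITED proteins, 2 were called higher and 2 lower, near the 18.9% and 15.3% of all tested genes, with a median of 0.31. Without the fold requirement, 6 of the 11 were higher and 3 lower at an adjusted p under 0.05. The shares of all tested genes were then 31.8% and 31%. The HIF1ɑ coactivators Ep300 (log2 fold change 0.34, adjusted p = 0.0050) and Crebbp (0.12, adjusted p = 0.22) were not called. Cited2, which competes with HIF1ɑ for them, stood at 0.43 (adjusted p = 0.00049) and was not called either. The called genes were Pkm (0.97), a glycolytic enzyme that can also bind HIF1ɑ, and Cited1 on the higher side, and Ncoa1 (-0.64) and Cited4 on the lower side. Both of these CITED genes passed the low count filter through 1 group only, and of the other 9 tested 1 was called higher and 1 lower. Cited1 had 1, 1 and 0 counts in normoxia and 32, 41 and 30 in hypoxia, and Cited4 had 54, 177 and 45 counts in normoxia and 5, 2 and 0 in hypoxia.

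Of the 11 other factors of the bHLH-PAS family, to which the HIF subunits belong, 10 could be tested, 7 were called higher and none lower, with a median of 0.88, beside the 18.9% of all tested genes called higher. Npas1 and Npas3 passed the low count filter only through the hypoxic samples, where they are high, and of the other 8 tested 5 were called higher, with a median of 0.75. Ahr, the aryl hydrocarbon receptor that shares Arnt as its partner, was measured at 7.97, 5.12 and 7.14 CPM in normoxia and at 22.0, 26.6 and 28.5 CPM in hypoxia, a log2 fold change of 1.93 (SE 0.16). Npas1 stood highest with 4.0 (SE 0.29), from 12, 4 and 14 counts to 159, 201 and 201, and Arntl2 was the lowest of those called with 0.69. Sim1 had no counts in any sample.

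Of 30 known HIF target genes other than the members, 29 could be tested, 26 were called higher, beside 18.9% of all tested genes, and none lower, beside 15.3%, with a median of 1.68. They were listed because HIF is known to act on them, so their direction is the familiar one. Car9, the carbonic anhydrase used as a hypoxia marker, stood highest at 5.13, and Tpi1, a glycolytic enzyme, was the lowest of those called at 0.80. Pfkfb4 (0.06), Aldoa (0.30) and Hmox1 (0.31) were not called. By fitted value, Car9 and Ndrg1 (3.79) stood above Egln3 at 3.61, and Egln1 at 2.16 and Vhl at 1.18 lay within the range of these targets. Epo, the HIF2ɑ target that encodes erythropoietin, was too low to be tested, with no counts in normoxia and 14, 11 and 11 in hypoxia, which is at least 3.51-fold higher when normoxia is set at the floor of 3 counts per library.

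**Figure D4:**
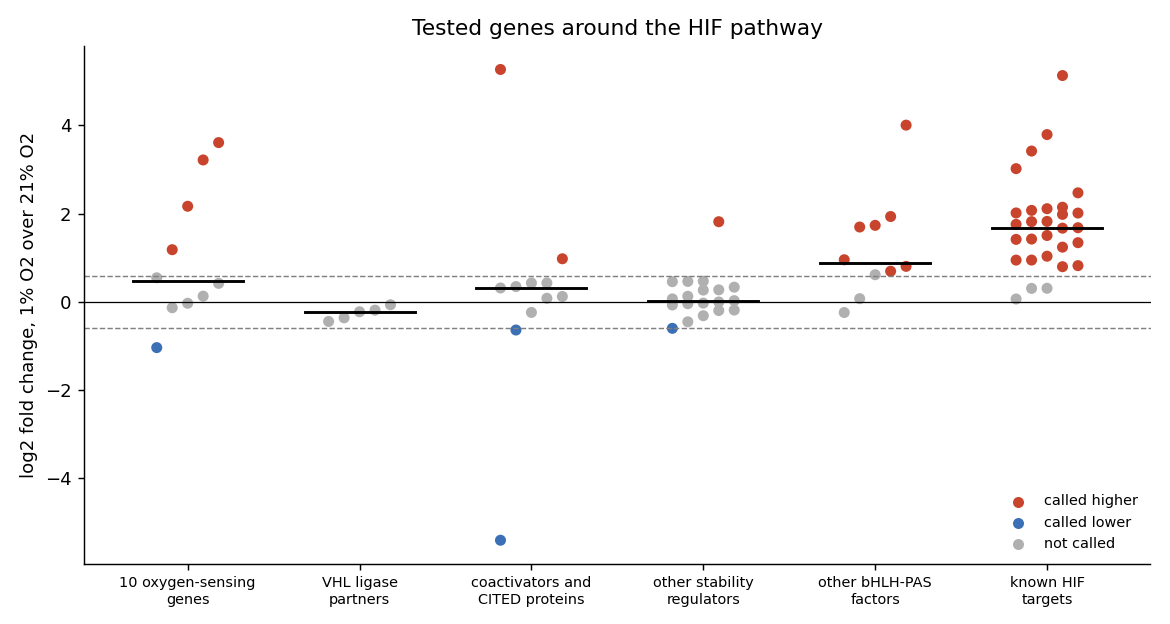
Log2 fold change, 1% O2 over 21% O2 (vertical axis), of every tested gene in the 10 oxygen-sensing genes and in 5 lists around them, with the median as a black bar and the fold of 1.5 dashed. The medians are 0.48 for the 10 genes, -0.23 for the VHL ligase partners, 0.31 for coactivators, 0.03 for other stability regulators, 0.88 for the bHLH-PAS factors and 1.68 for the HIF targets. The extreme points among the coactivators are Cited1 and Cited4, each with at most 5 counts per sample in 1 of the groups.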

How the data were processed

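The authors prepared poly(A) libraries, trimmed adapters, aligned with STAR 2.6.1b against GRCm38 and estimated gene counts with RSEM 1.3.1. They deposited expected counts (estimated counts) for 55426 features, not normalized between samples, and 0 of them had a fraction, so rounding changed nothing. The annotation release and the strand setting are not given in the sources used here. Symbols and coordinates came from GENCODE M21, in which 55240 identifiers were found and 186 were not. Columns were matched to samples by the labels, and 0 columns belonged to other samples.

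From these counts, edgeR 4.0.16 (limma 3.58.1, R 4.3.3) was run on all genes kept by filterByExpr, with TMM scaling, the quasi-likelihood F test and Benjamini-Hochberg adjustment over all 16207. Scripts were tested on simulated data. CPM are TMM-scaled, and TPM used the union of exons. For like patterns, genes with a mean log2 CPM of at least 3 were compared. Alternatives were DESeq2 1.42.0 and limma-voom, the replicate block, other scalings, filters and thresholds, GC and length offsets in 20 bins, the longest transcript as length, and each sample left out.

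All 10 members are named. From each other list, those with the highest and the lowest log2 fold change among the called genes are named, with genes whose level stands beside a result. Ep300, Crebbp, Cited2, Pkm, Ncoa1, Ahr, Krt19, Lyz2, Npas3, Esam, Epo, Ndrg1, Sim1, the uncalled targets and the VHL partners were named after their values were seen. The members and lists were chosen with earlier results of these data known. Promoter windows came from RefSeq.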

Additional observations from a re-analysis of the deposited data

How the results depend on the processing

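Over the alternatives and leave-one-out analyses, 179 of 180 fold changes of the 10 genes kept their direction and their side of the call. The exception was Arnt2, whose log2 fold change ran from -0.23 to 0.013 when single samples were left out and was 0.013 (adjusted p = 0.92) without normoxic replicate 1. The adjusted p of Arnt was under 0.05 with a GC offset, with that offset and the replicate block, and with a filter at 1 CPM (range 0.041 to 0.42 over 12 alternatives). That of Egln2 was 0.032 with a GC offset and 0.039 with that offset and the replicate block (log2 fold change -0.14 in each). Both genes stayed far under the fold required. Of 99 other values, 94 stayed, taken for counts as within 1.5 times and for ratios as within 1 SD of the replicates, and 5 moved. For the ratios, the replicate block was the mean difference within replicate number. That mean always equals the difference of the group means, so this setting is among those that stayed but could not move. The count of the 10 genes that were higher went from 4 to 6 without the fold requirement, which is at that limit. Without the fold requirement 5150 genes were higher and 5018 lower, and at a fold of 2 there were 1929 and 1227. With the longest transcript as length, 5 of 10 genes kept their normoxic place by level.

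Samples of the 2 groups share replicate numbers. Same-numbered samples correlated at 0.14, 0.14 and 0.04 in their deviations from the group means, and every sample correlated best with its own number, as a hint from the data only, so they were not treated as paired. With the replicate block 3072 genes were called higher and 2500 lower, and 5467 of these 5572 calls were among the 5547 made without it. DESeq2 called 2939 higher and 2366 lower. Low counts limit Hif3a, Cited1, Cited4 and Epo.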
